A study of Mus musculus with 8 samples.

Results

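The secreted Wnt antagonists and Wnt feedback genes were followed in cardiac fibroblasts from the mouse, which make the heart's connective tissue. The day 7 comparison was of EphrinB2 overexpression against vector and of culture medium. The genes are 10 members chosen by name: the antagonists Sfrp1, Sfrp2, Dkk2, Dkk3 and Wif1, the inhibitors Nkd1, Nkd2 and Apcdd1, and the pathway targets Axin2 and Lef1. All 10 were found among the 54532 genes of the deposited expression table, and 6 of them were among the 12994 genes with at least 1 FPKM in at least 2 libraries. FPKM is the number of fragments per length of exon and per a measure of sequencing depth, so levels can be compared between genes. The deposited values had been scaled to a common median ratio between libraries, and not to each library's sum of reads.

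RNA sequencing was run on 8 libraries in 4 groups of 2. The groups were fibroblasts overexpressing EphrinB2 (the Eph receptor ligand encoded by Efnb2) in osteogenic differentiation medium, the same cells in complete medium, vector control fibroblasts in osteogenic medium, and vector control fibroblasts in complete medium. The promoter driving EphrinB2, the strain, the age and sex of the mice, the number of animals or clones, and the composition of the media are not given in the labels. Nor do the labels say whether the paired libraries were grown as independent cultures, so every p-value here reflects the variation among 8 libraries, and that variation may be technical.

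Wnt proteins are lipid-modified ligands that bind Frizzled receptors and the co-receptors Lrp5 and Lrp6. In the canonical branch this stops the Axin complex from marking beta-catenin for destruction, and beta-catenin then activates target genes with TCF/LEF transcription factors. Some targets encode inhibitors of the pathway, which gives negative feedback. In the heart the pathway is active in development and is re-engaged in fibroblasts after injury, and in bone it favours osteoblast formation.

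Reads recovered from the FPKM values came to 18411915 to 21191833 per library. Efnb2 was at 5.02 and 18.3 FPKM in EphrinB2 cells in osteogenic medium and at 31.3 and 32.8 FPKM in EphrinB2 cells in complete medium. In vector cells it was at 1.39 and 1.27 FPKM in osteogenic and 6.30 and 5.56 FPKM in complete medium, so within each medium both EphrinB2 libraries were above both vector libraries, osteogenic replicate 1 by the least. Neither difference in Efnb2 was called (limma with Benjamini-Hochberg adjustment, adjusted p = 0.567 in osteogenic and 1.0 in complete medium). All 10 fibroblast markers were expressed, and 1 of 8 cardiomyocyte markers (Tnnt2) and 3 of 8 endothelial markers reached the filter. EphrinB2 complete replicate 2 and EphrinB2 osteogenic replicate 1 stood apart from their partners on the first principal component, the main axis of variation between libraries (59.6% of the variance). They lay at 50.5 and -63.3 on it, against 22.9 and -24.5 for their partners. Vector libraries lay at 29.5 and 29.6 in complete medium and at -21.7 and -23.0 in osteogenic medium. Over the tested genes, the difference between partners on the log2 scale had an SD of 0.657 in EphrinB2 osteogenic and 0.517 in EphrinB2 complete libraries, against 0.234 in vector osteogenic and 0.261 in vector complete libraries. That difference was correlated with exon length in the EphrinB2 groups, with a Spearman's rho across genes of 0.51 and 0.44 in size, against 0.018 and 0.037 in the vector groups (genes are not independent replicates).

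The antagonists and feedback genes were at low to very high levels. Sfrp1 ranked between 51 and 403 among the 12994 tested genes in the 8 libraries, and alone made up 68.7% to 72.7% of the summed FPKM of the 10 genes in osteogenic libraries and 79.5% to 83.1% in complete libraries. Dkk3 ranked from 1025 to 1697 and Sfrp2 from 1707 to 3291. Nkd2 ranked from 1791 to 7449 and Apcdd1 from 1872 to 7325, with all osteogenic libraries at the lower levels. Nkd1 ranked from 6007 to 9836. Axin2, Dkk2, Lef1 and Wif1 stayed below 1 FPKM in every library and were not tested.

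In osteogenic medium, Nkd2, Apcdd1 and Sfrp1 were lower than in complete medium in both kinds of cells, at 20.3% to 36.0% of their mean levels there. Nkd1 fell by less, and its fall passed the threshold in vector cells only. Dkk3 spanned 32.0 to 41.5 FPKM over all 8 libraries, and no rise of a member was called. In EphrinB2 cells 3 of the 6 tested members fell and 0 rose, where 11.8% of all tested genes were called in either direction and 5.44% fell. In vector cells 4 of the 6 fell and 0 rose, where 7.52% of all tested genes were called and 3.11% fell. The calls come from limma with Benjamini-Hochberg adjustment over all 12994 genes and a threshold of 0.05. The median difference of the 6 members was -1.14 in EphrinB2 cells and -1.14 in vector cells on the log2(FPKM + 1) scale, against 0.03 and -0.02 over all tested genes. Scaled instead to each library's sum of reads, the median of all genes was 0.14 in EphrinB2 and 0.08 in vector cells, and all calls in EphrinB2 cells were 956 rises and 523 falls, against 826 and 707 as deposited. The same 3 members were called in EphrinB2 cells under that scaling, and Nkd1 was no longer called in vector cells (limma, adjusted p = 0.119).

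**Figure D1:**
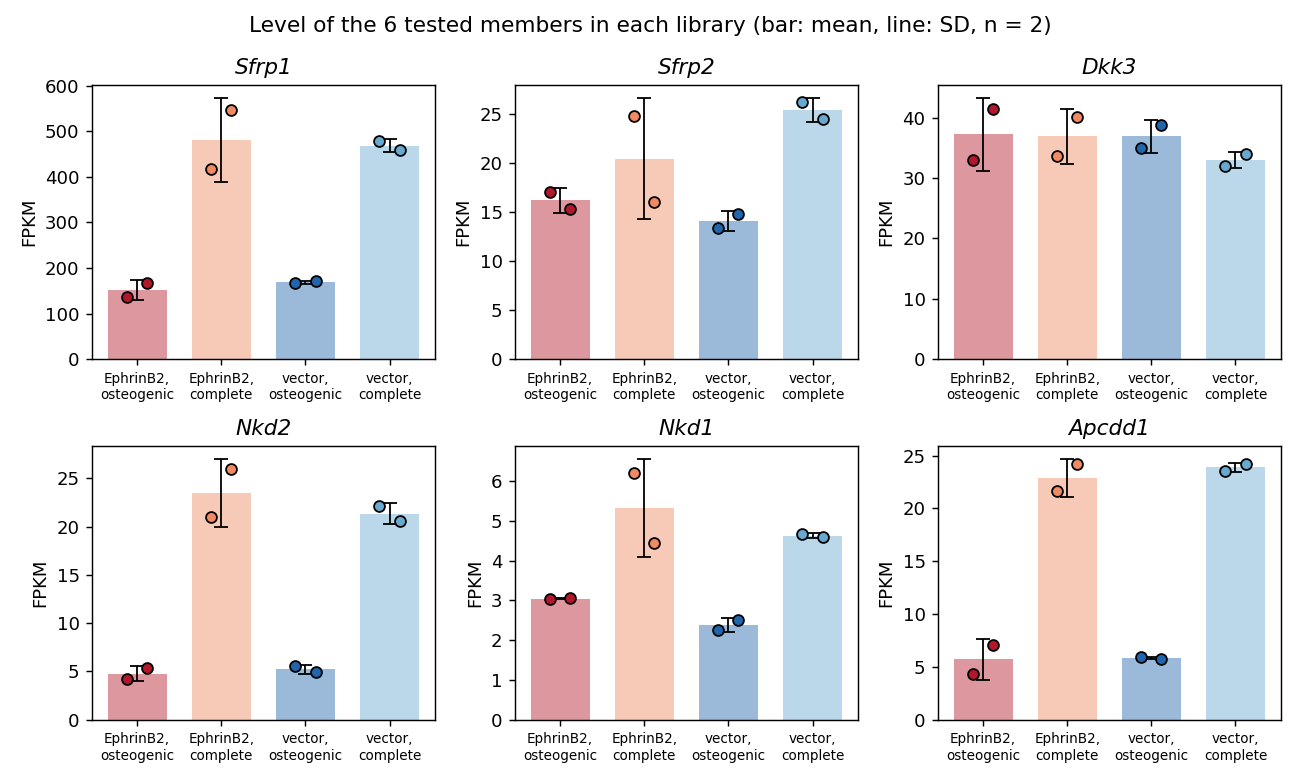
FPKM (vertical axes, starting at 0) of the 6 tested genes in each library, by group. Points are libraries, bars are group means and lines are SDs (n = 2). Sfrp1, Nkd2 and Apcdd1 are lower in both osteogenic groups than in both complete groups, with no overlap, and Dkk3 spans only 32.0 to 41.5 FPKM.

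Among the secreted antagonists, Sfrp1 encodes a secreted Frizzled-related protein, which carries a Frizzled-like domain and binds Wnt ligands outside the cell. The gene lies on the plus strand at chr8:23411502-23449632 (GRCm38). Sfrp1 was at 135.9 and 167.0 FPKM in EphrinB2 osteogenic libraries, against 416.8 and 546.7 FPKM in EphrinB2 complete libraries. Vector cells had 166.7 and 171.1 FPKM in osteogenic medium, against 478.4 and 459.1 FPKM in complete medium. The highest osteogenic library was thus far below the lowest complete library. Sfrp1 fell by 1.66 ± 0.21 (SE) on the log2(FPKM + 1) scale in EphrinB2 cells (limma, adjusted p = 0.0049), to 31.4% of its mean in complete medium. In vector cells it fell by 1.47 ± 0.21 (SE; limma, adjusted p = 0.0093), to 36.0%.

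Sfrp2 encodes a second protein of the same family, and its gene lies at chr3:83766321-83774316 on the plus strand. It was at 17.1 and 15.2 FPKM in EphrinB2 osteogenic libraries, against 24.8 and 16.1 FPKM in EphrinB2 complete libraries. Without EphrinB2 overexpression the values were 13.3 and 14.8 FPKM in osteogenic medium, against 26.2 and 24.5 FPKM in complete medium. The groups did not overlap in vector cells, and in EphrinB2 cells complete replicate 2, a library that stood apart, lay among the osteogenic values. Neither difference passed the threshold. The log2 difference was -0.29 in EphrinB2 cells (95% interval -0.81 to 0.23, limma adjusted p = 0.377) and -0.81 in vector cells (95% interval -1.33 to -0.29, limma adjusted p = 0.0826). With both libraries that stood apart left out, the same differences were -0.67 (limma, adjusted p = 0.0125) and -0.81 (limma, adjusted p = 0.0019). That fit leaves 1 EphrinB2 library in each medium and takes its spread from the vector libraries alone, so the EphrinB2 p assumes that a lone library varies as they do. Another annotated gene on the opposite strand, Gm26771, overlaps an exon of Sfrp2, and the sources used here do not give the strand setting of the counting, so reads of these genes cannot be told apart.

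The ratio of Sfrp1 to Sfrp2 followed the steeper fall of Sfrp1. Its lowest and highest values were 7.97 and 12.5 in the 4 osteogenic libraries, against 16.8 and 34.1 in the 4 complete libraries, with no overlap. This is a description of the same values and was not tested.

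Dkk3 belongs to the Dickkopf family of secreted proteins, and unlike other members it is not known as a strong inhibitor of Lrp5 and Lrp6. Its gene lies at chr7:112116017-112159057 on the minus strand. Dkk3 was at 33.0 and 41.5 FPKM in EphrinB2 osteogenic libraries, against 33.7 and 40.2 FPKM in EphrinB2 complete libraries. The corresponding vector values were 35.0 and 38.9 FPKM in osteogenic medium, against 32.0 and 34.0 FPKM in complete medium. The EphrinB2 values overlapped. In vector cells both osteogenic values lay above both complete values, without overlap but by a small gap. The log2 difference between media was 0.01 in EphrinB2 cells (95% interval -0.43 to 0.45) and 0.16 in vector cells (95% interval -0.28 to 0.60), neither past the threshold (limma, adjusted p = 0.978 and 0.776). Dkk3 therefore took 15.3% to 17.3% of the summed FPKM of the 10 genes in osteogenic libraries, against 5.45% to 6.43% in complete libraries, while its own level differed little.

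The remaining secreted antagonists were barely detected. Dkk2, a Dickkopf protein that binds Lrp5 and Lrp6 (chr3:132085292-132180304), had 6 and 0 recovered reads in EphrinB2 osteogenic, 12 and 3 in EphrinB2 complete, 1 and 5 in vector osteogenic and 10 and 2 in vector complete libraries. All groups overlapped their counterparts. Wif1, a secreted factor that binds Wnt ligands (chr10:121033960-121100650), had 0 reads in 7 libraries and 1 read in vector complete replicate 2. A count of 0 allows up to 3 reads, which at these depths and this exon length stands for 0.0601 to 0.0749 FPKM. Intervals and limits of this kind cover counting error only.

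The intracellular inhibitors Nkd1 and Nkd2 are the naked cuticle proteins, which bind Dishevelled, and they are paralogs. Nkd2 lies at chr13:73818534-73847631 on the minus strand and Nkd1 at chr8:88521354-88594884 on the plus strand. The 250 bases before the RefSeq start of both genes are shown because both genes fell, and those of Axin2 because it is the feedback gene most used as a readout of canonical signalling. They come from the RefSeq promoter table (GRCm38.p6), 5′ to 3′ on the gene's strand, and capitals mark a CCAAT box on either strand.
Nkd2, chr13:73847632-73847881, minus strand: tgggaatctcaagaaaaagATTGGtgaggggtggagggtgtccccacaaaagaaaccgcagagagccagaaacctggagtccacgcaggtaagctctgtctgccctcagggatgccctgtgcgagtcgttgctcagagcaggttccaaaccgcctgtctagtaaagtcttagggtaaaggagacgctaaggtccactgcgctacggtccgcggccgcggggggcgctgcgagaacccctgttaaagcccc
Nkd1, chr8:88527383-88527632, plus strand: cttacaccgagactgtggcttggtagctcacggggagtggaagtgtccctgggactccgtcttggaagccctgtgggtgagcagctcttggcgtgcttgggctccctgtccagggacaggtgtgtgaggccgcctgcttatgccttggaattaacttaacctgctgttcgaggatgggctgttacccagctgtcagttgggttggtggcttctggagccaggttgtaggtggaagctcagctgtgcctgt
Axin2, chr11:108920099-108920348, plus strand: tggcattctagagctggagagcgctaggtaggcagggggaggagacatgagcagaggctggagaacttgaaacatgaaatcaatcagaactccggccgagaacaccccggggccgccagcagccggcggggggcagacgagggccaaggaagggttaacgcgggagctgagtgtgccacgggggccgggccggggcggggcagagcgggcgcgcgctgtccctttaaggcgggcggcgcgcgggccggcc
GC content was 58.4% in the Nkd2 window and 58.4% in the Nkd1 window, against 69.2% in the Axin2 window, and these windows held 14, 6 and 24 CG dinucleotides. The Nkd1 window lies inside the gene as GENCODE M21 annotates it, between exons, because the annotations place the start differently. Both strands were searched for the TCF/LEF word CTTTGAT and for variants of it, one spelled CTTTGAA in full, another with the letters CTTTGTT instead, and a last with the letters CTTTGTA instead. The search covered 7 of the 10 members (Sfrp2, Dkk2, Wif1, Nkd1, Nkd2, Axin2 and Lef1) with 10 windows, because Lef1 has several. No entry was used for Sfrp1 and Dkk3. Apcdd1 was left out of the search beforehand, so the counts below say nothing about its promoter. A word was present in 1 of the 10 windows, one of those of Lef1, and in 14.8% of all 32851 windows of the same length in the table. The CCAAT box was present in the windows of Nkd2 and Dkk2, and in 33.8% of all windows. A match is a description of letters, and the absence of a match covers only these words and windows.

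Nkd2 was at 4.22 and 5.32 FPKM in EphrinB2 osteogenic libraries, against 21.0 and 26.0 FPKM in EphrinB2 complete libraries. The vector libraries held it at 5.55 and 4.90 FPKM in osteogenic medium, against 22.1 and 20.6 FPKM in complete medium. All 4 osteogenic libraries were below all 4 complete libraries by a wide gap. Nkd2 fell by 2.08 ± 0.17 (SE) on the log2(FPKM + 1) scale in EphrinB2 cells (limma, adjusted p = 0.0011), to 20.3% of its mean in complete medium. In vector cells it fell by 1.84 ± 0.17 (SE; limma, adjusted p = 0.0021), to 24.5%. Another annotated gene on the opposite strand, Gm8062, overlaps Nkd2 but none of its exons.

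Nkd1 had lower levels than Nkd2 and a smaller difference. It was at 3.03 and 3.06 FPKM in EphrinB2 osteogenic libraries, against 6.20 and 4.46 FPKM in EphrinB2 complete libraries. Vector cells had 2.27 and 2.50 FPKM in osteogenic medium, against 4.67 and 4.59 FPKM in complete medium. The groups did not overlap in either kind of cell. Nkd1 fell by 0.73 ± 0.16 (SE) in vector cells (limma, adjusted p = 0.0435). In EphrinB2 cells the log2 difference was -0.63 ± 0.16 (SE) and missed the threshold (limma, adjusted p = 0.0535). The difference between these effects was 0.10 (95% interval -0.45 to 0.65, limma adjusted p = 0.848), so a fall limited to vector cells was not shown.

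The ratio of Nkd2 to Nkd1, both in FPKM, separated the media without overlap. It was 1.39 and 1.74 in EphrinB2 osteogenic libraries, against 3.38 and 5.83 in EphrinB2 complete libraries. In vector cells it was 2.45 and 1.96 in osteogenic medium, against 4.73 and 4.49 in complete medium. The ratio describes the values above and was not tested.

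Apcdd1 encodes a membrane-bound glycoprotein that binds Wnt ligands and Lrp5 at the cell surface. The gene lies at chr18:62922231-62961179 on the plus strand and has 12884 bases of exon, the most of the 10 members. Apcdd1 was at 4.36 and 7.11 FPKM in EphrinB2 osteogenic libraries, against 21.6 and 24.2 FPKM in EphrinB2 complete libraries. Without EphrinB2 overexpression the values were 5.93 and 5.76 FPKM in osteogenic medium, against 23.6 and 24.2 FPKM in complete medium. The complete libraries were all above the osteogenic libraries. Apcdd1 fell by 1.85 ± 0.21 (SE) on the log2(FPKM + 1) scale in EphrinB2 cells (limma, adjusted p = 0.0033), to 25.1% of its mean in complete medium. In vector cells it fell by 1.86 ± 0.21 (SE; limma, adjusted p = 0.0039), to 24.5%. The EphrinB2 osteogenic replicates differed by 0.60 on that scale, with the lower value in replicate 1, a library that stood apart.

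**Figure D2:**
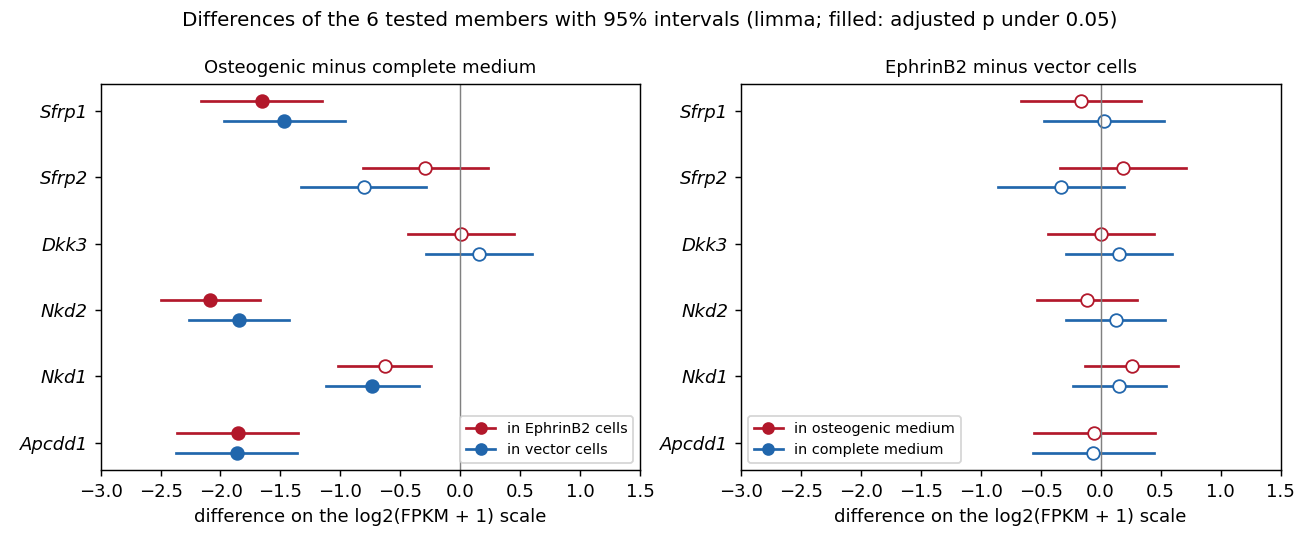
Difference (horizontal axes, log2(FPKM + 1) scale) of the 6 tested genes between media (left) and between EphrinB2 and vector cells (right), with 95% intervals from limma. Filled points have an adjusted p under 0.05. Sfrp1, Nkd2 and Apcdd1 lie between -1.47 and -2.08 for the medium in both kinds of cells, and every interval for EphrinB2 includes 0.

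Axin2 encodes a scaffold of the complex that marks beta-catenin for destruction, and it is itself a target of canonical signalling. Its gene lies at chr11:108920349-108950783 on the plus strand. Axin2 was at 0.256 and 0.292 FPKM in EphrinB2 osteogenic libraries, against 0.216 and 0.286 FPKM in EphrinB2 complete libraries. The corresponding vector values were 0.328 and 0.347 FPKM in osteogenic medium, against 0.300 and 0.283 FPKM in complete medium. These values rest on 23 to 37 recovered reads per library, and the vector osteogenic libraries were the highest. With the filter on low values removed, the log2 difference was 0.03 in EphrinB2 cells (95% interval -0.13 to 0.18) and 0.05 in vector cells (95% interval -0.10 to 0.21, limma adjusted p = 0.890 and 0.847). Because 1 is added before the log, these differences understate the change of a gene at this level. An exon of Gm11670, on the opposite strand, overlaps Axin2, so its reads could be included.

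Lef1, one of the TCF/LEF factors and also a pathway target (chr3:131110471-131224356), had 1 and 0 recovered reads in EphrinB2 osteogenic libraries, against 9 and 5 in EphrinB2 complete libraries. Vector libraries had 0 and 0 reads in osteogenic medium, against 0 and 3 in complete medium. The highest level was 0.053 FPKM. The EphrinB2 complete libraries were the highest, and with the filter removed no comparison of Lef1 passed the threshold (limma, adjusted p = 0.215 for the medium in EphrinB2 cells and 1.0 for EphrinB2 in complete medium). Of 2 other annotated genes that overlap Lef1, 1 overlaps its exons.

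**Figure D3:**
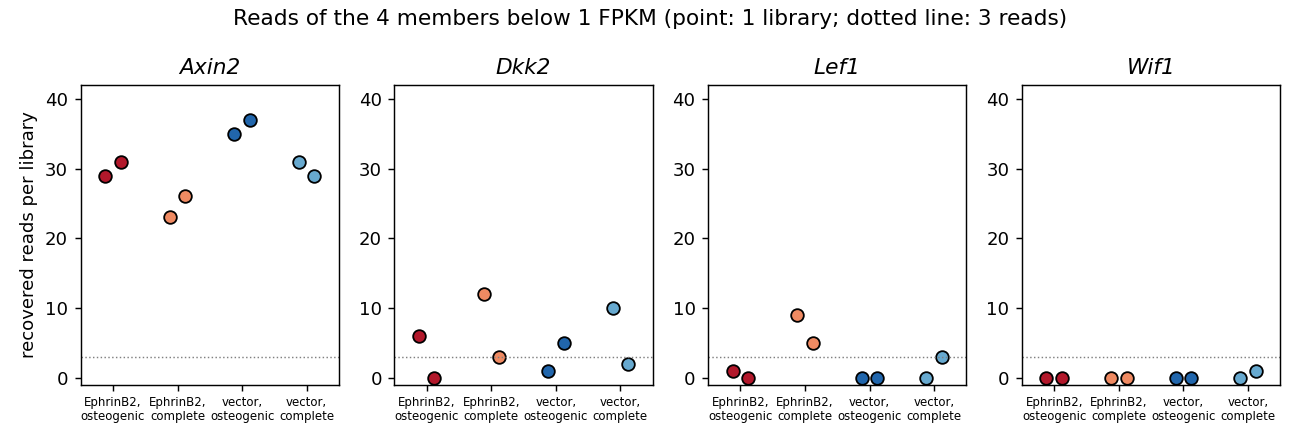
Recovered reads per library (vertical axes) of the 4 genes below 1 FPKM, by group, with 1 point per library and a dotted line at 3 reads. Axin2 lies between 23 and 37 reads in every group, while Dkk2 reaches at most 12, Lef1 at most 9 and Wif1 at most 1.

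When the medium effects of both kinds of cells were averaged, Nkd2 (limma, adjusted p = 1.7e-04), Apcdd1 (4.1e-04), Sfrp1 (8.0e-04) and Nkd1 (0.0080) fell. Their differences were -1.96, -1.86, -1.56 and -0.68 on the log2(FPKM + 1) scale. Sfrp2 had a difference of -0.55 and lay at the threshold (limma, adjusted p = 0.0505). In this comparison 19.8% of all tested genes were called and 9.44% fell. The averaged comparison shares its libraries with the comparisons above and is no further evidence for them.

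The number of calls depended on which libraries set the spread. Fitted on the EphrinB2 libraries alone, only Nkd2 kept its call in EphrinB2 cells (limma, adjusted p = 0.038), with 1.18% of all genes called. Without the libraries that stood apart 5 members fell there, with 29.7% of all genes called, but this sets 1 library against 1 and the spread comes from the vector groups only. In vector cells 5 members fell both in that fit and in a fit of the vector libraries alone, with 40.6% of all genes called in each. Without any 1 of the 4 vector libraries, Nkd2 was the only member called in vector cells (limma, adjusted p = 0.032 to 0.042), with 1.3% to 1.6% of all genes called, and Apcdd1 missed the threshold narrowly (adjusted p = 0.051 to 0.059). Leaving out each library in turn, the medium difference of Nkd2 was -2.23 to -1.94 in EphrinB2 cells and -1.92 to -1.77 in vector cells. For Nkd1 it was -0.83 to -0.43 in EphrinB2 cells and -0.78 to -0.68 in vector cells. That of Sfrp2 crossed 0 in EphrinB2 cells, at -0.59 to 0.0068, and was -0.88 to -0.74 in vector cells.

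Markers of macrophages moved with the medium in the direction opposite to these falls. Of 14 such markers, all were expressed and none was at 0. In EphrinB2 cells 12 rose and 1 fell, and in vector cells 8 rose and 0 fell (limma, threshold 0.05), where 6.36% of all tested genes rose in EphrinB2 cells and 4.41% in vector cells. Their summed level was 1204 to 2296 FPKM in EphrinB2 osteogenic and 319 to 470 FPKM in EphrinB2 complete libraries. Over the vector libraries the sum was 1344 to 1449 FPKM in osteogenic and 481 to 538 FPKM in complete medium. The summed level of the 10 fibroblast markers, led by Col3a1 and Col1a1, was 2961 to 3245 FPKM in EphrinB2 osteogenic libraries, against 5311 to 6190 FPKM in EphrinB2 complete libraries. For vector cells the sum was 2823 to 2886 FPKM in osteogenic medium, against 5006 to 5190 FPKM in complete medium. By gene, 3 of the 10 fell in either kind of cell, the collagens Col1a1, Col1a2 and Col3a1, and 1 rose, Dcn. Dcn averaged 732 FPKM in EphrinB2 osteogenic and 170 FPKM in EphrinB2 complete libraries. In vector cells it averaged 627 and 227 FPKM in these media. Pdgfra, Tcf21, Lum, Vim, Thy1 and Ddr2 were not called, so the lower sum follows the collagens and not the list as a whole. The summed level of the 8 cardiomyocyte markers, mostly Tnnt2, was 8.69 to 15.5 FPKM in EphrinB2 osteogenic libraries, against 0.917 to 0.923 FPKM in EphrinB2 complete libraries, and 6.12 to 7.17 FPKM in vector osteogenic libraries, against 0.733 to 0.937 FPKM in vector complete libraries. Tnnt2 rose by 2.80 in EphrinB2 cells and by 2.12 in vector cells (limma, adjusted p = 0.0016 and 0.0053), while Actn2 was at 0 in every library and Myh6 at or near 0. Of 6 epicardial and mesothelial markers 3 were tested and Msln, named after its values were seen, was the one called. It was at 3.71 and 5.59 FPKM in EphrinB2 osteogenic libraries, against 0.294 and 0.0574 FPKM in EphrinB2 complete libraries, and rose by 2.25 there and by 2.19 in vector cells (limma, adjusted p = 0.0015 and 0.0020). The sum of that list was 9.04 to 10.9 FPKM in EphrinB2 osteogenic and 8.30 to 8.34 FPKM in EphrinB2 complete libraries, and 7.81 to 10.6 FPKM in vector osteogenic and 7.05 to 8.92 FPKM in vector complete libraries. Of the 3 tested endothelial markers Cdh5 fell in both kinds of cells (limma, adjusted p = 0.0226 and 0.0362). Of 7 smooth muscle and pericyte markers 2 were tested and 0 called. Among the markers called, Tnnt2, Msln, Cd163 and Lyve1 reached 1 FPKM only in osteogenic medium, and Cdh5 only in complete medium. Each of them was thus tested only through the medium where it was higher. The part of these shifts in the falls of the Wnt antagonists was not tested, and in bulk RNA fewer cells of a type and less RNA per cell cannot be told apart.

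Between EphrinB2 and vector cells, none of the 6 tested members differed past the threshold in either medium. The values of both kinds of cells overlapped for Sfrp1, Dkk3, Nkd2 and Apcdd1 in both media. In osteogenic medium those of Nkd1 and Sfrp2 did not overlap, both being higher in EphrinB2 cells. The share of all genes without overlap was not counted, so this is a description only. Of all tested genes 0.0077% (1 gene) was called in complete medium and 0 in osteogenic medium (limma), while 167 and 441 genes had an unadjusted p under 0.05. Without EphrinB2 osteogenic replicate 2, which leaves the library that stood apart alone in its group, 2742 genes (21.1%) were called in osteogenic medium and 398 (3.06%) for the EphrinB2 effect averaged over media, with 0 members in either. In osteogenic medium the member with the largest difference in size was Nkd1, at 0.26 (95% interval -0.13 to 0.65, limma adjusted p = 0.567), with 3.03 and 3.06 FPKM in EphrinB2 cells and 2.27 and 2.50 FPKM in vector cells. In complete medium it was Sfrp2, at -0.33 (95% interval -0.85 to 0.19, limma adjusted p = 1.0). For Sfrp1 the difference was -0.16 in osteogenic medium (95% interval -0.67 to 0.34) and 0.03 in complete medium (95% interval -0.48 to 0.53). For Nkd2 it was -0.11 (95% interval -0.53 to 0.30) and 0.13 (95% interval -0.29 to 0.54), and for Apcdd1 -0.05 (95% interval -0.56 to 0.45) and -0.06 (95% interval -0.56 to 0.44). These intervals leave out a change as large as that between media for Sfrp1, Nkd2 and Apcdd1, and a p that misses the threshold does not show equal levels.

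The medium effects of both kinds of cells were compared by the interaction, the effect in EphrinB2 cells minus that in vector cells. It was called for 0 of the 6 members and 0 of all tested genes (limma), with 214 genes at an unadjusted p under 0.05. The interaction was 0.52 for Sfrp2 (95% interval -0.22 to 1.25), -0.24 for Nkd2 (95% interval -0.83 to 0.35), -0.19 for Sfrp1 (95% interval -0.90 to 0.52) and 0.01 for Apcdd1 (95% interval -0.70 to 0.72). Averaged over the media, the EphrinB2 effect was called for 0 members and 0 genes (limma), with 331 genes at an unadjusted p under 0.05, and the largest member difference in size was 0.21 for Nkd1 (95% interval -0.07 to 0.48).

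The other genes of the pathway were taken from 7 lists of ligands, receptors, secretion and R-spondin genes, other inhibitors, signal transduction, the TCF/LEF complex and other targets. Of their 109 genes, 68 were tested. In osteogenic medium 12 fell and 4 rose in EphrinB2 cells, and 10 fell and 2 rose in vector cells. Of all tested genes 5.44% fell and 6.36% rose in EphrinB2 cells, and 3.11% fell and 4.41% rose in vector cells. For EphrinB2 against vector cells and for the interaction 0 were called. On the EphrinB2 libraries alone 2 fell and 1 rose, where 1.18% of all genes were called, and on the vector libraries alone 33 fell and 10 rose, where 40.6% of all genes were called. Without the libraries that stood apart, 19 fell and 8 rose in EphrinB2 cells, again from 1 library against 1 with the spread of the vector groups and with 29.7% of all genes called.

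**Figure D4:**
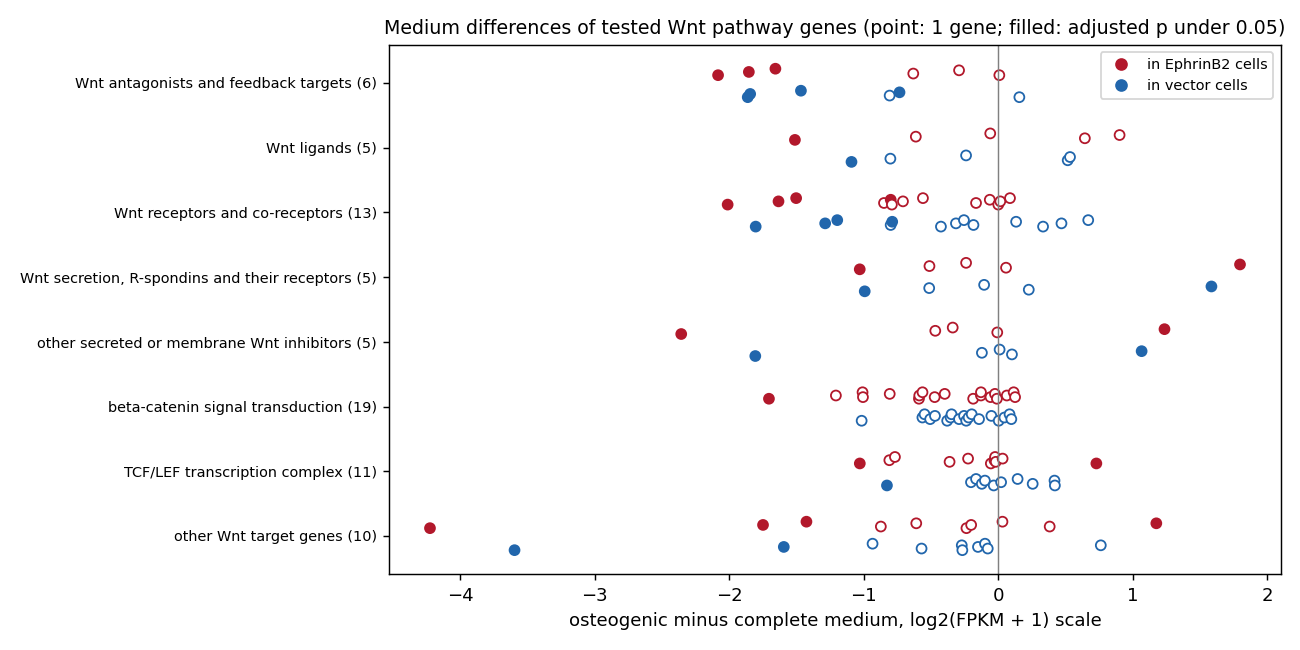
Difference between osteogenic and complete medium (horizontal axis, log2(FPKM + 1) scale) of the tested genes of the member list and 7 further Wnt lists, with the number tested in brackets. Each point is 1 gene in EphrinB2 (red) or vector (blue) cells, filled where the adjusted p is under 0.05. Ccn4 is the lowest point in both, at -4.23 and -3.60, and Porcn the highest, at 1.80 and 1.59.

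Of 19 ligand genes 5 were tested. Wnt5a, a ligand of the beta-catenin-independent branch, averaged 1.93 ± 0.71 FPKM in EphrinB2 osteogenic and 7.22 ± 0.43 FPKM in EphrinB2 complete libraries (SD, n = 2 each). It fell by 1.51 in EphrinB2 cells and by 1.09 in vector cells on the log2(FPKM + 1) scale (limma, adjusted p = 0.0044 and 0.0174). Wnt4 fell, and Wnt11 and Wnt5b rose, when the medium effects were averaged (limma, adjusted p = 0.0116, 0.0242 and 0.0354). In that comparison 19.8% of all tested genes were called. Wnt4, Wnt11 and Wnt5b each reached 1 FPKM only in the medium where they were higher, so they passed the filter through that medium. Their highest group mean was 1.75 FPKM, for Wnt11 in EphrinB2 osteogenic libraries. Of 16 receptor and co-receptor genes 13 were tested, and 4 fell and 0 rose in either kind of cell. The Frizzled gene Fzd8 averaged 15.3 ± 3.7 FPKM in EphrinB2 osteogenic and 64.6 ± 13.4 FPKM in EphrinB2 complete libraries (SD, n = 2 each), and fell by 2.01 in EphrinB2 and 1.80 in vector cells (limma, adjusted p = 0.0044 and 0.0077). Ptk7, a pseudokinase co-receptor, and Fzd5 fell in both kinds of cells, Fzd6 in EphrinB2 cells and Fzd2 in vector cells.

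The secretion genes moved in opposite directions. Porcn, the enzyme that attaches the lipid to Wnt ligands, was at 11.8 and 11.7 FPKM in EphrinB2 osteogenic libraries, against 3.07 and 2.30 FPKM in EphrinB2 complete libraries. It rose by 1.80 in EphrinB2 cells and by 1.59 in vector cells (limma, adjusted p = 0.0025 and 0.0046). Wls, which carries the lipid-modified ligands to the surface, was at 32.7 and 33.6 FPKM in EphrinB2 osteogenic libraries, against 73.5 and 64.2 FPKM in EphrinB2 complete libraries. Wls fell by 1.03 in EphrinB2 cells and by 0.99 in vector cells (limma, adjusted p = 0.0090 and 0.0120). No library of either gene overlapped between media. The R-spondin gene Rspo3 fell when the medium effects were averaged (limma, adjusted p = 0.0226), where 19.8% of all tested genes were called. Rspo3 reached 1 FPKM only in complete medium, averaging 1.25 FPKM in EphrinB2 and 1.32 FPKM in vector libraries there. It thus passed the filter only through the medium where it was higher.

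Other inhibitors did not fall as a group. Of 17 such genes 5 were tested, and 1 fell and 1 rose in either kind of cell. Trabd2b, a membrane protease that cuts Wnt ligands, was at 1.55 and 2.28 FPKM in EphrinB2 osteogenic libraries, against 10.7 and 17.8 FPKM in EphrinB2 complete libraries. It fell by 2.36 in EphrinB2 cells and by 1.81 in vector cells (limma, adjusted p = 0.0024 and 0.0076). Igfbp4, an IGF-binding protein also known as a secreted Wnt antagonist, averaged 577 ± 149 FPKM in EphrinB2 osteogenic and 241 ± 23 FPKM in EphrinB2 complete libraries (SD, n = 2 each). It rose by 1.24 in EphrinB2 cells and by 1.07 in vector cells (limma, adjusted p = 0.0206 and 0.0425). Frzb, another secreted Frizzled-related protein that is named here after its values were seen, was at 123 to 136 FPKM in all 8 libraries and was not called. Sfrp4, Sfrp5, Dkk1, Sost and Notum, all named for the same reason, stayed below the filter.

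Among 19 tested genes of beta-catenin signal transduction 1 fell in EphrinB2 cells and 0 were called in vector cells. That gene was Tnks, which encodes a tankyrase that marks Axin for destruction (limma, adjusted p = 0.0345). It was at 4.65 and 11.4 FPKM in EphrinB2 osteogenic libraries, against 20.7 and 33.3 FPKM in EphrinB2 complete libraries. Leaving out each library in turn gave differences of -2.27 to -1.14 there. In vector cells Tnks averaged 11.5 FPKM in osteogenic and 24.4 FPKM in complete medium, without overlap, so a fall limited to EphrinB2 cells was not shown. When the medium effects were averaged, where 19.8% of all tested genes were called, Tnks, Ctnnbip1, Csnk1a1 and Gsk3b fell (limma, adjusted p = 0.0149, 0.0144, 0.0314 and 0.0496). Of 11 tested genes of the TCF/LEF complex, Pygo1 fell by 1.03 in EphrinB2 and by 0.83 in vector cells (limma, adjusted p = 0.0169 and 0.0451). Pygo1 averaged 2.44 FPKM in EphrinB2 complete and 2.03 FPKM in vector complete libraries, against 0.676 and 0.705 FPKM in osteogenic medium. It thus passed the filter only through the medium where it was higher. Tle2, a co-repressor, rose in EphrinB2 cells by 0.73 (limma, adjusted p = 0.0492). Of 10 tested further targets, 3 fell and 1 rose in EphrinB2 cells, and 2 fell in vector cells. Ccn4, a matricellular gene first described as a Wnt target, was at 1.84 and 2.38 FPKM in EphrinB2 osteogenic libraries, against 52.0 and 62.4 FPKM in EphrinB2 complete libraries. In vector cells Ccn4 was at 3.44 and 2.93 FPKM in osteogenic medium, against 50.4 and 48.8 FPKM in complete medium. It fell by 4.23 in EphrinB2 cells and by 3.60 in vector cells (limma, adjusted p = 1.0e-04 and 2.1e-04). The growth factor gene Fgf18 also fell in both, the adhesion receptor gene Cd44 fell in EphrinB2 cells, and Myc rose in EphrinB2 cells. The tested targets thus moved in both directions.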

How the data were processed

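The authors deposited 1 table of FPKM values for 8 libraries. The submitters' processing notes name build mm10 and the tools HISAT2 2.0.5, featureCounts 1.5.0-p3, DESeq2 1.16.1 and CASAVA. The sources used here do not give the annotation release, strandedness or counting options. The median ratio of each library to the geometric mean over libraries was identical (1.007937) in all 8, so the deposited FPKM values had already been scaled to a common median ratio. In each library FPKM times exon length came in whole multiples of a smallest step (tolerance 0.02 reads) for 98.1% to 98.3% of genes under 50 reads. Dividing by the step gave the reads quoted.

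Symbols, coordinates and exon lengths came from GENCODE M21 (GRCm38), and promoters from RefSeq (GRCm38.p6). Values were analysed as log2(FPKM + 1), a scale that understates changes of low genes, for genes that reached 1 FPKM in at least 2 libraries. All libraries entered 1 limma 3.58.1 fit (R 4.3.3) with a mean per group, a variance trend, 4 residual and 2.72 prior degrees of freedom. Two-sided p-values were adjusted by Benjamini-Hochberg over 12994 genes in each of 7 comparisons. Exact permutation of 2 against 2 libraries cannot go below 0.333 and was not used. In simulated data every group took the vector complete means and the spread of its own libraries, with independent noise. Changes were planted in 100 genes of each size. The fit recovered 94 of 100 genes with a 4-fold change but 0 of 100 with a 2-fold change for the medium in vector cells. For the medium in EphrinB2 cells it recovered 89 and 23 of 100. The real medium comparisons called 977 genes in vector and 1533 in EphrinB2 cells. The adjustment depends on how many genes change, so these rates do not carry over to the real data.

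The members and gene lists were chosen with earlier results of these data known. All 10 members are named in every comparison. From the other lists, up to 4 genes with the smallest p past the threshold are named in each comparison, and others are marked. Alternatives changed the pseudocount to 0.1, removed the filter, rescaled by median ratio or by the sum of reads, dropped the variance trend, fitted only the compared groups, left out both libraries that stood apart, or left out each library in turn.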

Additional observations from a re-analysis of the deposited data

Results flagged for a closer look

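For 2 pathway genes every EphrinB2 library was below both vector libraries in osteogenic medium and above both in complete medium. Only the tested members and the pathway genes named for a small p were searched for this pattern. The share of all genes that show it was not counted, so the pattern is a description only. Fzd6, a Frizzled receptor gene, was at 2.94 and 3.84 FPKM in EphrinB2 osteogenic libraries, against 3.94 and 3.91 FPKM in vector osteogenic libraries. In complete medium it was at 6.69 and 6.52 FPKM in EphrinB2 libraries, against 5.45 and 5.79 FPKM in vector libraries. The difference was -0.17 in osteogenic and 0.20 in complete medium on the log2(FPKM + 1) scale. Ccn4 differed by -0.43 in osteogenic and 0.20 in complete medium. The interaction was -0.37 for Fzd6 and -0.63 for Ccn4, and neither passed the threshold (limma, adjusted p = 0.746 for both). The pattern was noticed in the values and rests on 2 libraries a group. None of the 10 members showed it.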

How the results depend on the processing

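No paired analysis was possible because the labels give no replicate numbers shared between groups. Sfrp1, Nkd2 and Apcdd1 kept a negative medium difference in both kinds of cells under every alternative run. For the medium in vector cells 4 members were called. The number was 3 without the filter (2.47% of all genes called) and 3 after scaling to the sum of reads (7.73%; Nkd1 lost in both), 5 with only the compared groups or without the libraries that stood apart (40.6% in both), and 1 to 5 leaving out 1 library in turn (1.3% to 13.5%). For the medium in EphrinB2 cells 3 were called, 1 with only the compared groups, 5 without the libraries that stood apart, and 3 to 4 leaving out 1 library (4.89% to 43.8% of all genes). For the averaged medium effect, with 19.8% of all genes called in the main fit, it was 3 to 5 leaving out 1 library in turn. Without the libraries that stood apart, Dkk3 was higher in osteogenic medium by 0.23 in the averaged comparison. That fit keeps 1 EphrinB2 library in each medium, so only the size of the difference is given. The counts for EphrinB2 and the interaction stayed at 0 under every alternative.

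None of the differences that reversed was called as reported, and 1 of them, Sfrp2 between media in EphrinB2 cells, was called without the libraries that stood apart (limma, adjusted p = 0.0125, 1 library against 1). Without the libraries that stood apart, EphrinB2 in complete medium reversed for Sfrp1 (-0.17) and Nkd2 (-0.023), EphrinB2 in osteogenic medium for Nkd2 (0.024) and Apcdd1 (0.25), and the interaction for Sfrp1 (0.15), Dkk3 (0.14), Nkd1 (-0.093) and Nkd2 (0.046). Scaling to the sum of reads, chosen after seeing the data, reversed Sfrp1 in complete (-0.046) and Dkk3 in osteogenic medium (-0.056) for EphrinB2, and a pseudocount of 0.1 reversed the interaction of Apcdd1 (-0.003). The cause was not tested. Leaving out each library in turn, these differences crossed 0. The medium in EphrinB2 cells gave -0.59 to 0.0068 for Sfrp2 and -0.15 to 0.17 for Dkk3. EphrinB2 in complete medium gave -0.17 to 0.22 for Sfrp1, -0.045 to 0.36 for Nkd1, -0.023 to 0.27 for Nkd2 and -0.14 to 0.017 for Apcdd1. EphrinB2 in osteogenic medium gave -0.16 to 0.17 for Dkk3, -0.25 to 0.024 for Nkd2 and -0.35 to 0.25 for Apcdd1. The interaction gave -0.38 to 0.0054 for Sfrp1, -0.31 to 0.012 for Dkk3, -0.098 to 0.30 for Nkd1 and -0.29 to 0.31 for Apcdd1. No named difference of the other pathway genes reversed. Depth limits Axin2, Dkk2, Lef1 and Wif1, which had at most 37 reads per library.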
